A study of Homo sapiens with 4 samples.

Results

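The IL-1 family cluster is a run of 9 cytokine genes on human chromosome 2: IL1A, IL1B, IL37, IL36G, IL36A, IL36B, IL36RN, IL1F10 and IL1RN. The members were chosen by name, as the IL-1 and IL-36 ligand genes of this locus, and were put forward because of how they differed between the 2 groups of libraries compared here. Their group difference is therefore given as a description, without a test, and the intervals beside low values cover counting error only. The table listed 19314 genes, all 9 members among them, and 8 of the 9 had values. RNA-seq was carried out on U87, an established human glioblastoma cell line. The 2 PTP2 libraries were labelled PTPRN knockdown, and the 2 SCR libraries served as control. According to the study's methods, knockdown in U87 used short hairpin RNA from the pLKO.1 vector and the control was a scrambled hairpin. Cells were kept in DMEM with serum. PTPRN encodes a receptor-type tyrosine phosphatase of dense-core vesicles that lacks enzyme activity. The labels gave 1 knockdown only and did not say whether replicates came from separate cultures. P-values therefore measure the spread between these libraries, which may be technical.

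Cytokines of the IL-1 family are alarm signals of barrier tissues and innate immune cells. IL-1α and IL-1β bind the receptor IL1R1, which recruits the accessory chain IL1RAP and signals through MYD88, IRAK kinases and TRAF6 to NF-κB and the MAP kinases. The IL-36 cytokines use IL1RL2 with the same accessory chain. Both branches carry a built-in brake in the same locus: IL1RN encodes the IL-1 receptor antagonist, and IL36RN encodes the IL-36 receptor antagonist. IL-1β is made as an inactive precursor that is classically cut by caspase-1. In glioma, IL-1 signalling is known for its link to inflammatory chemokines and to mesenchymal traits.

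Levels were given as FPKM, fragment counts scaled to the length of the transcript and to the mapped fragments of the library, so they can be compared between genes per unit length. All 8 members with values were higher in both PTP2 libraries than in both SCR libraries. The same held for 39.7% of the 16595 genes with a value. Of the 8 members, 7 had a log2 difference of at least 1 on the log2(FPKM + 1) scale, as did 3.09% of all genes. Their median difference on that scale was 2.71, against 0.012 for all genes tested. IL36RN ranked 2, IL1B 4, IL36B 5, IL1RN 30 and IL1A 38 among the 16595 genes by the size of this difference. IL36G and IL1F10 lay just inside the 2-fold limit, at 1.26 and 1.12, and IL37 lay outside it, at 0.34. Since this contrast chose the members, nothing is read from these counts. In a bulk sample, fewer cells that express a gene and less RNA per cell cannot be told apart.

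The start regions of 4 members are shown, those of IL1B, of IL1A beside it and of both antagonist genes, because NF-κB, AP-1 and C/EBP factors are the classical regulators of IL-1 genes. RefSeq windows from 250 bases before to 50 bases after an annotated start (GRCh38.p14) were matched for 8 of the 9 members, all but IL36B, with 14 windows in all. The sequences run 5′ to 3′ on the strand of the gene. Capitals mark a match on either strand to the AP-1 letters TGANTCA, to the C/EBP letters TTGCNNAA, or to the NF-κB consensus. The lines hold IL1A at chr2:112784351-112784650 (minus strand), IL1B at chr2:112836730-112837029 (minus strand), IL36RN at chr2:113058388-113058687 (plus strand) and IL1RN at chr2:113117721-113118020 (plus strand).
IL1A: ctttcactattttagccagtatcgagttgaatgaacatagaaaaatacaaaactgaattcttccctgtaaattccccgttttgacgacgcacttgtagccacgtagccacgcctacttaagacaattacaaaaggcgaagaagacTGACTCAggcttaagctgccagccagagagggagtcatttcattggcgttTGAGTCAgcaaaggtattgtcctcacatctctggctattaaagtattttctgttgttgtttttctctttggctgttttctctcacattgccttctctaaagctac
IL1B: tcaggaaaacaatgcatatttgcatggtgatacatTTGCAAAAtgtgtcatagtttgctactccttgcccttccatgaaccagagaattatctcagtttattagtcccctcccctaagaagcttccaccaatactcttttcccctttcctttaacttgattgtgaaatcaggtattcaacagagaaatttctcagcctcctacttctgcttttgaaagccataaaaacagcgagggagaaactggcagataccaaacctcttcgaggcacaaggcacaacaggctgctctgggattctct
IL36RN: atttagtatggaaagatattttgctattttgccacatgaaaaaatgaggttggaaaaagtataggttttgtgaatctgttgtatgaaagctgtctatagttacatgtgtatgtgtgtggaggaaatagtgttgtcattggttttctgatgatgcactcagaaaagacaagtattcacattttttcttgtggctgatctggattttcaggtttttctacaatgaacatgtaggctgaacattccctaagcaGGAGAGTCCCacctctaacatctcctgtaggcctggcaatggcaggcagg
IL1RN: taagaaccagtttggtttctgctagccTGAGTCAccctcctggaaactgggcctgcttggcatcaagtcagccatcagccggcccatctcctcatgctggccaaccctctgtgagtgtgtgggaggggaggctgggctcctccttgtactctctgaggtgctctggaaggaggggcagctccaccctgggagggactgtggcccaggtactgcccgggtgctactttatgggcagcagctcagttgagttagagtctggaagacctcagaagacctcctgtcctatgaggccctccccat

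IL1A, IL36RN and IL1RN had more than 1 window, and for each a window with a match is printed. In the printed IL1A window, AP-1 letters began at positions -105 and -55 from the start, which is position 1. Counted from the other IL1A start, the same sites began at -12 and 39. In the printed IL1RN window AP-1 letters began at -223, and in the IL1B window C/EBP letters began at -215. The other IL1RN windows held no AP-1 letters. The printed IL36RN window held an NF-κB match on the opposite strand, beginning at the start itself. The other IL36RN window held none of the motifs. Over all member windows, AP-1 letters were in IL1A and IL1RN, C/EBP letters in IL1B and IL37, the NF-κB consensus in IL36RN and IL1F10, and TATAAA in IL1A, IL1F10, IL1RN and IL37. The 2 TATAAA matches of IL1RN overlap each other on opposite strands. Counted by window, 3 of the 14 member windows held AP-1 letters, 2 C/EBP letters, 2 the NF-κB consensus and 4 TATAAA. The 2 IL1A windows overlap and hold the same AP-1 sites, so these sites count in both windows. The AP-1 count is therefore not one of separate sites. Of 35116 RefSeq windows of the same length, 7.71% held AP-1 letters, 10.5% C/EBP letters, 5.91% the NF-κB consensus and 11.5% TATAAA. No motif was shared by all the members that were high with PTP2. A match says that these letters are present and nothing about binding.

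The targeted gene was checked first. PTPRN stood at 12.1 and 11.7 FPKM in the PTP2 libraries and at 84.8 and 85.0 in the SCR libraries, a log2 difference of -2.74 (SE 0.03, limma adjusted p = 1.48e-04). The lower values are therefore in the libraries labelled as knockdown. Depth, estimated from the step that 1 read makes in low FPKM values, was 18150000 to 19700000 reads. A gene other than a member is called differential here when the fold was at least 2 on the log2(FPKM + 1) scale and limma's Benjamini-Hochberg adjusted p was at most 0.001. Of all genes tested 6.69% were differential, 2.63% higher and 4.06% lower with PTP2. With any 1 library left out the fit had too few degrees of freedom for that threshold (lowest adjusted p 0.0226 to 0.0229, the spread then coming from the other group), so the calls could not be checked in this way. The labels name U87, while the growth protocol names a brain endothelial line, hCMEC/D3. None of 8 endothelial markers reached 10 FPKM, and they summed to 3.89 to 4.45. Of 5 glioma line markers, 2 were differential and higher with PTP2 and 1 was lower. VIM stood at 4766.13 and 4564.5 FPKM with PTP2 and at 1997.7 and 1918.05 with SCR. CD44 stood at 315.84 and 313.53 against 151.78 and 151.56. NES was lower, at 3.12 and 3.39 against 12.96 and 14.24 (log2 difference -1.78). GFAP and S100B, markers of astrocytic cells, were at or below 0.55 FPKM in every library. Which line the libraries came from was not tested.

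IL1B, the gene of the secreted agonist IL-1β (chr2:112829760-112836779, minus strand, 1 transcript), was the most abundant member in every library. It measured 2817 and 2782 FPKM in the PTP2 libraries and 43.5 and 42.8 in the SCR libraries. The groups lay far apart, with little spread inside either (2800 ± 24.4 against 43.2 ± 0.52, SD, n = 2), and the ratio of means was 64.9. IL1B ranked 7 among all genes by FPKM in both PTP2 libraries, and 1781 and 1794 in the SCR libraries. About 74284 and 73172 reads stood behind the PTP2 values, and 1243 and 1125 behind the SCR values. Its share of the total FPKM was 0.63% in each PTP2 library and 0.010% in each SCR library.

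IL1A, the gene of the other IL-1 agonist, which is active as a precursor and works from dying cells or at the cell surface, lies next to IL1B (chr2:112773915-112785398, minus strand). It stood at 17.2 and 16.9 FPKM with PTP2 and at 1.89 and 1.87 with SCR. The means were 17.1 ± 0.25 and 1.88 ± 0.014 (SD, n = 2), a ratio of 9.07. IL1A was thus higher in both PTP2 libraries but far less abundant than IL1B. IL1B over IL1A was 163.6 and 164.9 in the PTP2 libraries and 23.0 and 22.9 in the SCR libraries, so the FPKM ratio between these neighbours was 7.16 times higher with PTP2.

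The 3 IL-36 agonist genes did not share a level. IL36B (chr2:113022091-113052867, minus strand), which encodes IL-36β, stood at 93.7 and 98.9 FPKM with PTP2 and at 0.90 and 0.70 with SCR. The means were 96.3 ± 3.66 and 0.80 ± 0.14 (SD, n = 2), a ratio of 120.4. Behind them lay about 1939 and 2041 reads against 20 and 14, which gave a read ratio of 121.9 with a 95% exact counting interval of 87.1 to 176.3.

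IL36G, which encodes IL-36γ, a cytokine best known from keratinocytes, lies further towards IL1B (chr2:112978019-112985672, plus strand). It measured 1.81 and 1.48 FPKM with PTP2 and 0.15 and 0.05 with SCR, on about 38 and 31 reads against 3 and 1. The libraries of the 2 groups did not overlap, and the read ratio was 17.96 (95% counting interval 6.71 to 67.8). IL36G overlaps the pseudogene HMGN2P23 on the opposite strand, and their reads cannot be told apart without strand. IL36A, which encodes IL-36α (chr2:113005461-113008044, plus strand), sits between IL36G and IL36B and had no value in any library. The IL-36 agonist signal with PTP2 was therefore almost all IL36B, and IL36B over IL36G was 51.8 and 66.8 in the PTP2 libraries and 6 and 14 in the SCR libraries, where few reads stood behind either gene.

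IL36RN, the IL-36 receptor antagonist gene (chr2:113058638-113064744, plus strand), had the largest difference of the cluster. It stood at 114.8 and 115.5 FPKM with PTP2 and at 0.10 and 0.11 with SCR. The means were 115.1 ± 0.43 and 0.105 ± 0.007 (SD, n = 2). About 5532 and 5547 reads stood against 5 and 5, a read ratio of 1154 (95% counting interval 627.1 to 2406). The SCR level was thus near the limit of detection, and the size of the ratio carries the error of those 10 reads.

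IL1RN, the IL-1 receptor antagonist gene at the far end of the cluster (chr2:113117893-113134016, plus strand), was also higher with PTP2. Its values were 43.4 and 42.9 FPKM against 5.56 and 5.36. The means were 43.1 ± 0.36 and 5.46 ± 0.14 (SD, n = 2), a ratio of 7.90. IL1RN was the second most abundant member in the SCR libraries and the fourth in the PTP2 libraries.

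The remaining members with values were close to the limit of detection. IL1F10, which encodes IL-38, a cytokine described as an antagonist, lies between IL36RN and IL1RN (chr2:113067970-113075850, plus strand). It stood at 1.13 and 1.31 FPKM with PTP2 and at 0.04 and 0 with SCR, on about 27 and 31 reads against 1 and 0. The read ratio was 60.4 with a 95% counting interval of 10.4 to 2426, so its size is poorly known. IL37, which encodes an anti-inflammatory cytokine with no mouse counterpart (chr2:112912971-112918882, plus strand), measured 0.41 and 0.45 FPKM against 0.27 and 0. With about 5 and 6 reads against 4 and 0, the read ratio was 2.86 (95% counting interval 0.85 to 12.3), so the depth was too low to size a difference in IL37.

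The agonists and antagonists did not keep their proportions. IL1RN over the sum of IL1A and IL1B was 0.0153 in each PTP2 library, and 0.122 and 0.12 in the SCR libraries. This FPKM ratio was 7.92 times lower with PTP2, since IL1B differed more than IL1RN. The IL-36 branch went the other way. IL36RN over the sum of IL36B and IL36G was 1.20 and 1.15 with PTP2 and 0.095 and 0.147 with SCR, a ratio 9.73 times higher with PTP2, although the SCR values rest on about 5 reads of IL36RN each. IL36RN over IL1RN was 2.65 and 2.69 with PTP2 and 0.018 and 0.021 with SCR, so the more abundant antagonist transcript was IL36RN in the PTP2 libraries and IL1RN in the SCR libraries. These are ratios of transcripts and say nothing of the proteins.

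The cluster as a whole summed to 3089 and 3060 FPKM with PTP2 and to 52.4 and 50.9 with SCR. IL1B made up 91.2% and 90.9% of that sum in the PTP2 libraries and 83.0% and 84.1% in the SCR libraries. IL1RN made up 1.40% in each PTP2 library and 10.6% and 10.5% in the SCR libraries. IL36RN made up 3.72% and 3.77% with PTP2 and 0.19% and 0.22% with SCR. At 10 FPKM or more were 5 members with PTP2 and 1, IL1B, with SCR. The order in both PTP2 libraries was IL1B, IL36RN, IL36B, IL1RN, IL1A, IL36G, IL1F10 and IL37, in which IL36G and IL1F10 were close (31 reads each in PTP2 replicate 2). In the SCR libraries it was IL1B, IL1RN, IL1A and IL36B, and the other 4 lay near 0 in an order that differed between the libraries.

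The genes around the cluster were then examined, since these were not used to choose the members. The members lie within 360.1 kb, and 19 other genes with values were found within 1 Mb on either side, 12 before IL1A and 7 after IL1RN. None of the 19 was differential by limma, beside 6.69% of all genes. An unadjusted p under 0.05 was found for 14, and at an adjusted p of at most 0.05 there were 7 higher and 4 lower. Over all genes 62.2% had an unadjusted p under 0.05 and 57.9% an adjusted p of at most 0.05, so the neighbours' counts were near the background. Their log2 differences ran from -0.94 to 0.89, with a median of 0.09, so every neighbour stayed below the 2-fold limit on this scale. PSD4 passed it without SCR replicate 2, at -1.01.

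CKAP2L, a mitotic spindle gene 9.24 kb before the cluster, stood at 14.9 and 15.0 FPKM with PTP2 and at 7.40 and 7.79 with SCR (log2 difference 0.89, SE 0.04, limma adjusted p = 4.85e-04). PSD4, an exchange factor gene 40.0 kb after it, stood at 3.53 in both PTP2 libraries and at 8.12 and 7.32 with SCR (log2 difference -0.94, SE 0.06, limma adjusted p = 8.80e-04). The gene on one side of the cluster was thus higher and the gene on the other side lower, both by less than 2-fold on the log2(FPKM + 1) scale. Further out, TTL, the tubulin tyrosine ligase gene, had a log2 difference of 0.80, and SLC20A1, a phosphate transporter gene, one of -0.15.

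The receptors of these ligands were taken next. Of 8 receptor genes with values none was differential by limma, beside 6.69% of all genes, and 5 had an unadjusted p under 0.05 (62.2% of all genes). At an adjusted p of at most 0.05 there were 1 higher and 4 lower (57.9% of all genes in either direction). These counts were near the background. IL1R1, the signalling receptor for IL-1α and IL-1β, stood at 16.6 and 17.6 FPKM with PTP2 and at 26.7 and 27.3 with SCR (log2 difference -0.63, SE 0.04, limma adjusted p = 0.0011). IL1R2, the decoy receptor that binds IL-1β without signalling, stood at 0.70 and 0.35 against 1.79 and 1.17. IL1RAP, the shared accessory chain, stood at 3.06 and 3.07 against 3.82 and 4.44 (log2 difference -0.33, limma adjusted p = 0.021). The transcripts for both chains of the IL-1 receptor were thus lower in both PTP2 libraries, by less than 2-fold. IL1RL2, the receptor through which IL-36 cytokines and IL36RN act, was listed at 0.06 and 0 with PTP2 and at 0.03 and 0 with SCR, about 3 reads in all 4 libraries. IL1RL2 transcript was at the limit of detection in both groups. IL18R1, a chain of the IL-18 receptor, had a log2 difference of -0.30 (limma adjusted p = 0.0061), IL1RL1, the IL-33 receptor, one of 0.22 (limma adjusted p = 0.035), SIGIRR, an inhibitory member of the family, one of -0.25 (limma adjusted p = 0.11), and IL18RAP was at 0.00.

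The family members encoded elsewhere in the genome are IL18 and IL33. IL33, a nuclear alarmin, stood at 4.04 and 4.09 FPKM with PTP2 and at 0.02 and 0.10 with SCR, and was differential (log2 difference 2.26, SE 0.05, limma adjusted p = 2.42e-04). The groups did not overlap, and about 195 and 197 reads stood against 1 and 5. IL18, which like IL1B is cut by caspase-1, stood at 0.42 and 0.55 against 0.40 and 0.15 (limma adjusted p = 0.19).

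Genes for the processing and release of the ligands moved both ways. Of 22 listed genes 20 had values, and 2 were differential and higher, 1 lower and 17 not, 15% in all beside 6.69% of all genes. CTSS, the gene of cathepsin S, a protease known to activate IL-36γ, stood at 40.2 and 40.0 FPKM with PTP2 and at 13.2 and 13.7 with SCR (log2 difference 1.51, SE 0.03, limma adjusted p = 2.42e-04). CASP4, a caspase of the non-canonical inflammasome, stood at 31.3 and 30.4 against 12.3 and 13.4 (log2 difference 1.20, limma adjusted p = 5.51e-04). NINJ1, which ruptures the membrane of dying cells, was lower, at 18.7 and 18.9 against 41.4 and 40.0 (log2 difference -1.08, limma adjusted p = 3.55e-04).

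CASP1, the gene of the classical IL-1β-converting enzyme, stood at 3.16 and 3.27 FPKM with PTP2 and at 1.44 and 1.60 with SCR. Its log2 difference of 0.74 (limma adjusted p = 9.50e-04) was below the 2-fold limit on the log2(FPKM + 1) scale. GSDMD, the pore through which IL-1β leaves cells, had a log2 difference of -0.13 (limma adjusted p = 0.27). The calpain genes CAPN1 and CAPN2, whose products cut the IL-1α precursor, had differences of -0.02 and -0.31. The inflammasome sensor NLRP3 was listed at 0.37 and 0.33 FPKM with PTP2 and at 0.44 and 0.48 with SCR, and its adaptor PYCARD at 0.16 and 0.49 against 0.08 and 0.08. The sensor NLRC4 was lower than NLRP3 in every library, at 0.19 and 0.25 FPKM with PTP2 and at 0.08 and 0.21 with SCR. AIM2 and NLRP1 were more abundant than NLRP3. AIM2, a sensor of cytosolic DNA, stood at 21.8 and 21.4 FPKM against 9.98 and 10.9 (log2 difference 0.98, limma adjusted p = 7.24e-04). NLRP1 stood at 1.08 and 1.15 against 3.18 and 3.27 (log2 difference -0.998, limma adjusted p = 3.93e-04). Both were just below the 2-fold limit on the log2(FPKM + 1) scale, which understates the change of low genes. PYCARD and these sensor genes were picked after their values were seen.

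Of 15 adaptor and kinase genes downstream of the receptors, 1 was differential (6.67%, the share over all genes being 6.69%), and the median log2 difference was 0.22. It was ECSIT, a TRAF6 partner that also serves mitochondrial complex I assembly, at 33.8 and 32.1 FPKM with PTP2 and 16.1 and 15.0 with SCR (log2 difference 1.04, limma adjusted p = 6.59e-04). The 20 transcription factor genes were of the NF-κB, AP-1, C/EBP and other families, STAT3 and HIF1A among them. Of the 20, 3 were differential and higher and 1 lower, 20% in all beside 6.69% of all genes. FOSL1, an AP-1 subunit, stood at 566.5 and 583.5 FPKM against 116.6 and 114.5 (log2 difference 2.31, SE 0.03, limma adjusted p = 1.53e-04). ATF3, a stress-induced factor, had a log2 difference of 1.55 (limma adjusted p = 4.42e-04), and NFKB2, the p100 subunit of non-canonical NF-κB, one of 1.39 (limma adjusted p = 5.92e-04). HIF1A, the oxygen-sensing factor, was lower, at 156.1 and 156.8 FPKM against 391.7 and 406.0 (log2 difference -1.34, limma adjusted p = 2.76e-04).

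Genes known to respond to IL-1 were the list with the most calls. Of 26, 13 were differential and higher, 1 lower and 12 not, beside 2.63% higher and 4.06% lower over all genes, with a median log2 difference of 1.70. CXCL5, a neutrophil-attracting chemokine, stood at 197.9 and 199.8 FPKM with PTP2 and at 0.04 and 0.11 with SCR (log2 difference 7.54, limma adjusted p = 8.0e-05). The chemokine genes CXCL3 and CXCL1 had log2 differences of 4.97 and 4.52 (limma adjusted p = 8.0e-05 and 2.88e-04). Sequence between CXCL1, CXCL2 and CXCL3 is so alike that short reads may be split among them, so the division between these genes is uncertain. The matrix metalloproteinase genes MMP3 and MMP1 had differences of 5.54 and 4.24 (limma adjusted p = 8.0e-05 and 1.58e-04). The lower gene was CCL2, a monocyte chemokine, at 3.56 and 3.73 FPKM against 15.9 and 15.9 (log2 difference -1.86, limma adjusted p = 1.94e-04). Over all 6 pathway lists, 23 of 91 genes with values were differential, 20 of them higher (25.3%, against 6.69% of all genes). The share over all genes includes many near the floor, which can hardly reach 2-fold on the log2(FPKM + 1) scale. With only genes at 1 FPKM or more in at least 2 libraries, 1289 of 11480 genes were differential, 24 of them in these lists. Several genes of these lists were known to differ when the lists were drawn up, so these counts are not independent evidence of a direction.

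Markers of cells that make IL-1 cytokines were read beside these results. The summed FPKM of 9 myeloid markers with values was 346.4 to 364.4 with PTP2 and 237.7 to 238.1 with SCR, and CD68, a lysosomal gene, was the one marker to reach 10 FPKM. At least 1 FPKM in some library was reached by 4 of the 9, among them LYZ (1.67 to 2.93) and CSF1R (1.96 to 3.17). SPI1, the defining myeloid factor, was at 0 to 0.12 FPKM, and AIF1 and TYROBP had no value. Neutrophil markers (5 of 8 with values) summed to 3.8 to 5.01 with PTP2 and to 61.3 to 62.0 with SCR, the difference lying in FPR1. Keratinocyte and epithelial markers (9 of 10 with values) summed to 24.6 to 24.8 with PTP2 and to 26.7 to 31.0 with SCR, and KRT10, at 23.0 and 23.3 against 29.4 and 24.9, made up most of that sum and was the one to reach 10 FPKM. KRT5, which defines basal keratinocytes, was at 0 to 0.02. The part of these marker differences in the results was not tested.

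The genes whose profile over the 4 libraries was nearest to that of IL1B were MMP3, SERPINB2, PI3, CXCL3 and IL13RA2. Their Euclidean distances on the centred log2(FPKM + 1) scale were 0.45, 0.48, 0.54, 1.02 and 1.08. SERPINB2, a protease inhibitor gene of the plasminogen system, stood at 1084 and 1081 FPKM against 11.4 and 11.04. PI3, which encodes the elastase inhibitor elafin, stood at 181.7 and 177.8 against 3.25 and 3.01. With 2 libraries in each group, such a distance mainly ranks genes by a similar group difference.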

How the data were processed

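Total RNA from 4 U87 libraries (2 PTP2, 2 SCR) had been sequenced as single-end 50-base reads on a BGISEQ-500. The submitters' processing notes name HISAT2 2.1.0 and hg19. The positions in the deposited table instead overlap GENCODE 29 genes of GRCh38 for 18261 of 18807 shared symbols (97.1%) and for all 9 members, so positions are given as GRCh38. The authors deposited FPKM per gene, and both deposited tables held identical values (66380 compared, 0 differing). Read counts were not used here. Columns of the authors' own comparison (log2 fold changes, p-values, q-values and false discovery rates) and their group averages were not used.

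Members and gene lists were chosen with earlier results of these data known. By rule the text names every receptor, up to 5 differential genes with the largest change in each other list, the nearest gene on each side and the 5 profiles nearest to IL1B. It also names those genes of a hand-picked processing set that averaged 1 FPKM or more (CASP1, GSDMD, CTSS, CAPN1, CAPN2). That set left out other genes of the processing list above this level, such as CASP8 and S100A13. Other list, neighbouring and marker genes (IL18, CCL2, CXCL2, NLRP3, PYCARD, NLRC4, AIM2, NLRP1, TTL, SLC20A1 and the markers) were added after their values were seen. Genes with no value in any library (2719) were left out. FPKM were analysed as log2(FPKM + 1) with limma 3.58.1 in R 4.3.3 (group only, empirical Bayes, Benjamini-Hochberg adjustment over 16595 genes). The thresholds for a differential gene, 2-fold and 0.001 for the adjusted p, are those of the study. Differences on this scale understate the change of low genes. The fit was tested on simulated data.

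Read numbers were estimated from whole-read steps in genes with 1 transcript, where 82.2% to 87.3% of 384 to 444 values a library lay within 0.2 reads of a whole number. Genes with several transcripts used the longest, so their read numbers are approximate. Ratios of read numbers carry 95% exact binomial intervals. Same-numbered replicates were checked for pairing: their deviations correlated at 0.064 over 11272 genes, so the numbers were not treated as pairs. Alternatives were a pseudocount of 0.1 (also with an intensity trend), the trend alone, a filter on low values, quantile and median-ratio scaling, a replicate block, and each library left out.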

Additional observations from a re-analysis of the deposited data

How the results depend on the processing

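The count of differential genes fell from 1111 to 0 with a pseudocount of 0.1 (10185 genes at an unadjusted p under 0.05), to 0 with the replicate block (10108 genes), and to between 0 and 0 without each library in turn (8700 to 8790 genes). These fits had fewer degrees of freedom (3.17, 2.61 and 1.74 to 1.82, against 3.72), and their lowest adjusted p was 0.00122, 0.00396 and 0.0226 to 0.0229, so the 0 does not speak to single genes. With a pseudocount of 0.1 and an intensity trend the count was 1172, of which 1015 were shared. It was 1134 to 1289 with the filter on low values, the trend alone, quantile scaling and median-ratio scaling. Over the pathway lists, the 23 calls likewise became 0 with a pseudocount of 0.1, 0 with the replicate block and 0 to 0 with each library left out. PTPRN kept its direction, with a log2 difference of -2.83, -2.74 and -2.76 to -2.71 in those 3 settings, but not its call. With each library left out in turn, IL1RL2 ran from -0.0213 to 0.0627 and CAPN1 from -0.0463 to 0.0079, so their signs are not fixed. ECSIT was not called with median-ratio or quantile scaling.

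The 8 members stayed higher with PTP2 under every alternative in which they were fitted. IL37 was left out by the filter on low values. Low members depended most on the pseudocount: IL36RN ran from 6.67 to 9.14, IL1F10 from 1.06 to 3.48, IL36G from 1.17 to 3.17 and IL37 from 0.17 to 1.46, while IL1B ran from 5.94 to 6.07. With a pseudocount of 0.1, 8 members and 2 neighbouring genes passed 2-fold, against 7 and 0, and 1 neighbour, PSD4, did without SCR replicate 2. The log2 change of IL1RN over IL1A plus IL1B stayed between -2.999 and -2.971, and that of IL36RN over IL36B plus IL36G between 3.003 and 3.626. Depth limits IL37, IL1F10 and IL36G, and the SCR levels of IL36B and IL36RN.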
